A study of Homo sapiens with 8 samples.

Results

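Chromatin accessibility, measured by FAIRE sequencing, was compared in HCT8 cells between exposure to *V. cholerae* MVs and to *E. coli* MVs. The libraries were chosen by label: the FAIRE peak lists marked C6706 (*V. cholerae* MVs) and MC1061 (*E. coli* MVs), which are 2 of the 3 FAIRE libraries and 2 of the 8 samples of the series. HCT8 is an established human cell line from an ileocecal colorectal adenocarcinoma. MVs are membrane vesicles, here isolated by ultracentrifugation from the supernatants of stationary-phase cultures of the *V. cholerae* strain C6706 or the *E. coli* strain MC1061, and cells were incubated with them for 5 h. The third FAIRE library is labelled as a control of non-treated cells, whereas the study describes its control cells as mock-treated with buffer. It is called mock here, and its values are given beside the others. There was 1 library per treatment, all from the same unedited cell line, so no test between treatments was possible. Intervals are exact 95% intervals for counting error only. Tags carry no molecular identifiers and are not independent molecules, and a different preparation of cells or MVs is not covered by these intervals. In such bulk libraries fewer cells with an accessible site and less accessibility per cell cannot be told apart.

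FAIRE isolates DNA that is not wrapped in nucleosomes: cross-linked chromatin is sheared and extracted with phenol-chloroform, and free DNA stays in the aqueous phase. Such DNA lies mainly at the start sites of transcribed genes and at distal elements such as enhancers, where transcription factors bind. In gut epithelial cells bacterial products are sensed by receptors that signal through NF-kB and AP-1, whose target genes include their own inhibitors. *V. cholerae*, the agent of cholera, acts on ion transport and cell junctions of the intestinal epithelium, whereas MC1061 is a laboratory strain.

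A pair of promoters and sites from both ends of the comparison are printed first. These are 300 bases from the middle of a distal FAIRE region on the plus strand of GRCh37 (hg19), and capitals mark every match, on either strand, to the letters of an AP-1 site (TGANTCA), an NF-kB site (GGGA, any 4 bases, then CC), an E-box (CANGTG), a CRE (TGACGTNA), a CTCF core or an HNF4 site (CAAAGNCCA). A match is a description of letters and does not show that a factor binds. The first is in an intron of TIAM2 (chr6:155272282-155272581) and the second in an intron of GALNT15 (chr3:16225060-16225359), and these regions had some of the highest values with *V. cholerae* MVs relative to *E. coli* MVs. The third, in an intron shared by GRHL3 and STPG1 (chr1:24690264-24690563), had a peak with *V. cholerae* MVs and none with *E. coli* MVs. The fourth, in an intron of ZMIZ1 (chr10:80910583-80910882), had the lowest ratio among distal regions, and the fifth, in an intron of CRTC1 (chr19:18873460-18873759), had a peak with *E. coli* MVs and none after *V. cholerae* MVs.
TIAM2: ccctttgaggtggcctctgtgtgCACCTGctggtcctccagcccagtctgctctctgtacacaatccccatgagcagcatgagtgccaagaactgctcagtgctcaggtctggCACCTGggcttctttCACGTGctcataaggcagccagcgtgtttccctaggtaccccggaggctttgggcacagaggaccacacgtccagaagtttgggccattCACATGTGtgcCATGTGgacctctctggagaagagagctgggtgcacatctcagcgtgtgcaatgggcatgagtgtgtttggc
GALNT15: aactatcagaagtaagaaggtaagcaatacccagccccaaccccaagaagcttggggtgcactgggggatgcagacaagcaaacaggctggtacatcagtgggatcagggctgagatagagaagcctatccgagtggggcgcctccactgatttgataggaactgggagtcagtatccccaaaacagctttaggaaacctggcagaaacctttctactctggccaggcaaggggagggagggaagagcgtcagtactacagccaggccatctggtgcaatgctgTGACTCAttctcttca
GRHL3 and STPG1: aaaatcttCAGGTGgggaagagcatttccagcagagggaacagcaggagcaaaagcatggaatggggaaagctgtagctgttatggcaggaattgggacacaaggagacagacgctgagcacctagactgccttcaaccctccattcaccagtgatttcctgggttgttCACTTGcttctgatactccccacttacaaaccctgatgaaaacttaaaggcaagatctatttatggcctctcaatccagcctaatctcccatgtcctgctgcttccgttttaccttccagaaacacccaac
ZMIZ1: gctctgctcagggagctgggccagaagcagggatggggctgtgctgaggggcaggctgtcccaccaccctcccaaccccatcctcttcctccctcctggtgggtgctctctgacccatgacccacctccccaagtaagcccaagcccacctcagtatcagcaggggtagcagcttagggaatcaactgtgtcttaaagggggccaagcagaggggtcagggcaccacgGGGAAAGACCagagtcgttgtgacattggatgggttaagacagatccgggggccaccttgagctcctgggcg
CRTC1: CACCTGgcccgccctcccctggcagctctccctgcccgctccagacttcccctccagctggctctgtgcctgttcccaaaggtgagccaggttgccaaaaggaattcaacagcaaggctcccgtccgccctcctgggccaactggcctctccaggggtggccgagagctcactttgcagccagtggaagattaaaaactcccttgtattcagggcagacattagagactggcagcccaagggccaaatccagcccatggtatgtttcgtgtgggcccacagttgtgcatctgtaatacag

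Of these windows the TIAM2 one held E-boxes, the GALNT15 one an AP-1 match, the ZMIZ1 one an NF-kB match, and the others E-boxes. The next pair shows 250 bases upstream of the start sites of BIRC3 (plus strand, chr11:102187965-102188214) and NFKBIA (minus strand, chr14:35873956-35874205), both NF-kB targets. Log2 ratios of *V. cholerae* to *E. coli* MVs at these genes had opposite signs when scaled to tags in peaks, 1.14 and -3.26. Per tag of the whole library they were -0.28 (-0.78 to 0.22) and -4.68. Their sequences were taken from RefSeq promoters (GRCh38.p14) and each matched GRCh37 at 1 place. Capitals mark the NF-kB letters, which 22.6% of all 35116 such upstream sequences hold. NFKBIA had 1 match to these letters and the BIRC3 window had none. Other forms of an NF-kB site were not searched, so the lack of a match does not show that such a site is absent.
BIRC3: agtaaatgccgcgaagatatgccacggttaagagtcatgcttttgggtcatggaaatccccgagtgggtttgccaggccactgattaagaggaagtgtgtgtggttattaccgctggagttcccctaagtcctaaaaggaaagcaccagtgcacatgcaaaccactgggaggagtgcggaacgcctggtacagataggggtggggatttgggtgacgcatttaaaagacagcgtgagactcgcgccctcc
NFKBIA: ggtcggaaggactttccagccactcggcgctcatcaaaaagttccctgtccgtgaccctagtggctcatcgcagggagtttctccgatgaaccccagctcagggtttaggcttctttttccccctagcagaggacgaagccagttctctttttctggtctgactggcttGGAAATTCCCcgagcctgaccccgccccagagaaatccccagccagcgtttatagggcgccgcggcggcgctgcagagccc

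The 2 libraries differed in depth and, more, in how much of the library lay in peaks. The *V. cholerae* MV library had 12077180 tags with 13.9% of them in peaks, the *E. coli* MV library 7888670 tags with 37.3%, and the mock library 14474665 tags with 7.12%. The lists held 79588, 94225 and 66429 peaks on chromosomes 1 to 22 and X, covering 55.7, 98.2 and 39.2 Mb. Peaks of the *E. coli* MV list were also wider, with a median of 661 bp and a maximum of 23452 bp, against 500 bp and 6870 bp with *V. cholerae* MVs. As a check of the cell type, all 7 epithelial markers (EPCAM, KRT8, KRT18, KRT19, CDH1, ELF3 and CDX2) had FAIRE and H3K4me3 peaks at their start sites in both libraries. Of 12 blood cell markers, 4 had a FAIRE peak with *V. cholerae* MVs and 7 with *E. coli* MVs, and PTPRC, CD3E, MS4A1, HBB and GATA1 had none in either. Of 13 annotated markers of fibroblasts, endothelium, muscle, neurons and liver, 5 and 9 had one, and COL1A2, COL3A1, NEUROD1 and ALB had none in either MV library. Summed normalized tag counts of the epithelial markers were 860.0 with *V. cholerae* MVs and 1933.0 with *E. coli* MVs, those of the blood markers 86.1 and 481.6, and those of the other tissues 93.6 and 717.4. H3K4me3 peaks were called at 1 of the 12 blood markers in each MV library. For the 13 other markers this was 2 with *V. cholerae* MVs and 1 with *E. coli* MVs. All libraries came from the HCT8 line, and why markers of other cell types had FAIRE peaks was not tested.

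Peaks of both lists that share at least 1 bp were joined, giving 36615 shared regions, of which 16122 lay within 1000 bp of an annotated transcription start site and 20493 were distal. These regions held 39385 peaks (49.5%) of the *V. cholerae* MV list and 36966 peaks (39.2%, interval 38.9 to 39.5) of the *E. coli* MV list. The other peaks were mostly small, but those unique to *E. coli* MVs reached 656 tags and held 36.6% of the tags in that list. The 40203 peaks unique to *V. cholerae* MVs had a median of 12 tags and 500 bp, 14.5% lay at start sites and 5.82% overlapped an H3K4me3 peak. The 57259 peaks unique to *E. coli* MVs had a median of 13 tags and 626 bp, 25.9% lay at start sites and 10.6% overlapped H3K4me3, and their median GC content was 56.4% against 50.1%. Whether a unique peak would have been callable in the other library depended on the scale. Reduced to the depth of the *E. coli* MV library by all tags, 65.2% of the peaks unique to *V. cholerae* MVs fell below its threshold of 9 tags. Scaled by tags in peaks instead, 74.6% of the peaks unique to *E. coli* MVs fell below the threshold of 11 tags of the *V. cholerae* MV library, and only 0.431% did by all tags. Absence from a list was therefore not read as absence of accessibility.

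The following values were compared over the shared regions: the normalized tag count (tags per 10000000 tags of the library), the called size and the tags per kb of called size. Per 10000000 tags, most shared regions had less FAIRE signal after *V. cholerae* MVs, and at start sites more than at distal sites. The median log2 ratio of *V. cholerae* to *E. coli* MVs was -0.99 (-1.01 to -0.98) over all regions, -1.40 at start sites and -0.62 at distal sites. The signal was higher with *V. cholerae* MVs in 4450 regions (12.2%). In 355 of them, 0.97% of all shared regions, the counting interval lay wholly above 0. These intervals were not adjusted for the number of regions. The called size was smaller with *V. cholerae* MVs as well, with a median log2 ratio of -0.34, and tags per kb had a median of -0.51. The *E. coli* MV library had 2.68 times the share of its tags in peaks, so the counts were next expressed per tag in peaks, which adds 1.42 to each log2 ratio. On that scale the sign of the median turned: 0.43 over all regions, 0.02 at start sites and 0.81 at distal sites, and 0.91 for tags per kb. The general direction after this scaling was therefore towards *V. cholerae* MVs, and regions higher with *E. coli* MVs ran against it. The scale sets where 0 lies, whereas the order of regions and genes along the ratio does not depend on it.

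**Figure D1:**
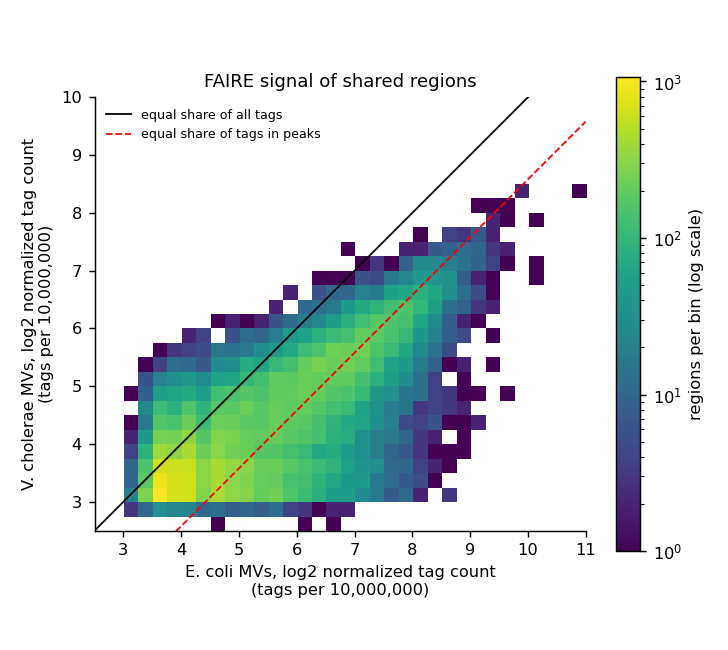
Normalized tag counts (log2, tags per 10000000) of the 36615 shared regions with *E. coli* MVs (x axis) and *V. cholerae* MVs (y axis), with colour for the number of regions per bin. Most regions lie below the black line of equal share of all tags, and they lie on both sides of the dashed line of equal share of tags in peaks.

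Regions were called where the ratio scaled to tags in peaks was at least 2-fold with its counting interval wholly on that side. By this rule 7343 shared regions were higher with *V. cholerae* MVs (20.1% of all) and 2921 with *E. coli* MVs (7.98%). Distal sites made up most of the first group and start sites most of the second: 5642 of 20493 distal regions (27.5%) were higher with *V. cholerae* MVs and 957 (4.67%) with *E. coli* MVs, against 1701 (10.6%) and 1964 (12.2%) of the start site regions. Regions nearest to the limit had log2 ratios of 1.00 inside and outside it, and genes likewise.

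The called size moved with these calls. Regions higher with *E. coli* MVs had a median called size of 2852 bp in that library and 500 bp in the *V. cholerae* MV library. Regions higher with *V. cholerae* MVs had 500 bp and 814 bp, respectively. Per kb of called size, 2720 of the 2921 regions higher with *E. coli* MVs (93.1%) had a ratio above 0, on the side of *V. cholerae* MVs, and 5 regions in all were called higher with *E. coli* MVs. When only the 12093 shared regions whose called sizes were at most 25% apart were taken, a choice made after the data were seen, 2628 were higher with *V. cholerae* MVs and 1 with *E. coli* MVs. The regions that ran against the general direction were mostly wide *E. coli* MV peaks that overlapped a narrow *V. cholerae* MV peak. A weaker signal spread over the same width and a signal confined to the narrow peak cannot be told apart from peak lists. Of the 7343 regions higher with *V. cholerae* MVs, 4153 (56.6%) were also called per kb.

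Base composition ran along the ratio. Shared regions were split into 4 equal groups by GC content, with median GC of 50.3, 54.7, 58.4 and 63.3%. The median log2 ratio, scaled to tags in peaks, was 1.07, 0.68, 0.19 and -0.31 from the most AT-rich to the most GC-rich group. In the most AT-rich group 42.8% of regions were higher with *V. cholerae* MVs and 0.481% with *E. coli* MVs. In the most GC-rich group 2.96% and 19.8% were. The order held at start sites (1.00 to -0.36) and at distal sites (1.07 to -0.06). It also held among regions of nearly equal called size, with medians of 1.07, 0.94, 0.72 and 0.26, and per kb over all regions, with medians of 1.05, 0.97, 0.87 and 0.64. Spearman's correlation coefficient across all shared regions was -0.59 for GC content and the ratio, and -0.76 for the called size with *E. coli* MVs and the ratio, as a description, since all points come from the same pair of libraries. The *E. coli* MV tags in the ratio were counted over that same called size, so the value of -0.76 is partly built in. Fragment lengths in the headers were 260 bp with *V. cholerae* MVs and 284 bp with *E. coli* MVs. The part of base composition, fragment length and called size in the ratios was not tested.

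**Figure D2:**
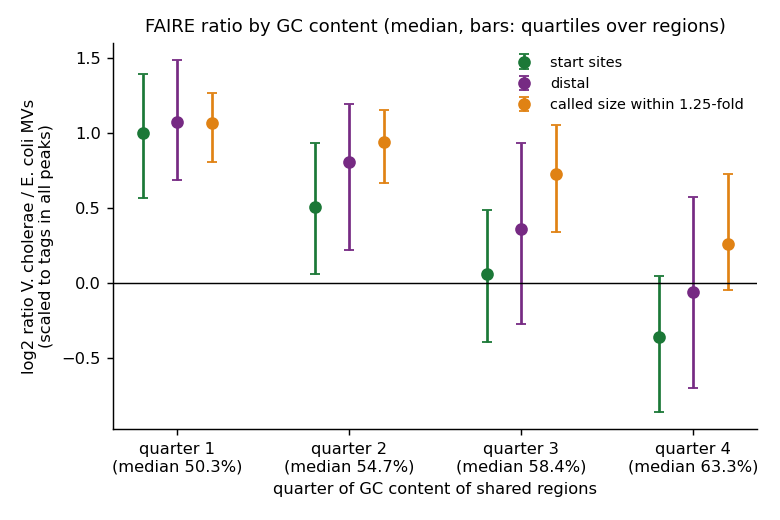
Log2 ratio of *V. cholerae* to *E. coli* MVs scaled to tags in all peaks (y axis) in 4 equal groups by GC content (x axis), as the median (point) and quartiles over regions (bars), for start site regions, distal regions and regions of nearly equal called size. Medians go down from the first to the last group in each set, and those of nearly equal size stay above 0.

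Distal regions higher with *V. cholerae* MVs lay at a median of 16388 bp from the nearest protein-coding start site, against 14363 bp for all distal regions. Of them 48.5% lay in introns and 44.9% between genes, close to the 48.7% and 43.3% of all distal regions. Among distal regions in the upper 25% of mean level the highest ratio was in an intron of TIAM2, which encodes an activator of the Rac GTPase. The TIAM2 region (chr6:155271317-155273548, the first sequence above) had 36.6 normalized tags in mock, 10.1 after *E. coli* MVs and 43.9 after *V. cholerae* MVs, a log2 ratio of 3.53 (2.45 to 4.82). By tag count the *E. coli* MV value was the lowest of the 3, whereas per kb of called size it was the highest, with 20.2 against 15.5 in mock and 19.7 after *V. cholerae* MVs. A region between genes near PKDCC, a secreted kinase (chr2:42191034-42193562), had 8.29, 13.9 and 51.3, a ratio of 3.30 (2.36 to 4.38). Here the *V. cholerae* MV value was above both others. The same order was seen in the GALNT15 intron (chr3:16224092-16226329), with 8.29, 10.1 and 36.4 (ratio 3.27, 2.16 to 4.56). It was also seen in an intron of the antisense gene ZMIZ1-AS1 (chr10:80751847-80754018), again with 8.29, 10.1 and 36.4. GALNT15 encodes an enzyme of O-linked glycosylation. In an intron of GNA12, a G protein subunit (chr7:2814732-2816997), values were 24.2, 12.7 and 44.7, a ratio of 3.24, and in a non-coding intron near RBBP8NL (chr20:61007391-61010187) they were 22.8, 12.7 and 46.4, a ratio of 3.29. In these regions the *E. coli* MV peak was 500 bp wide, the smallest size the caller gives, and the *V. cholerae* MV peaks spanned 2171 to 2796 bp. Per kb of called size the ratios scaled to tags in peaks were 0.81 to 1.38, against a median of 1.00 (quartiles 0.80 to 1.20) for all distal regions. Per kb and 10000000 tags *V. cholerae* MVs were not higher, for example at GALNT15 with 16.3 against 20.2.

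Distal peaks unique to *V. cholerae* MVs with the most tags had neither a mock nor an *E. coli* MV peak. The region in the intron shared by GRHL3, a transcription factor of epithelial barrier formation, and STPG1 (chr1:24689311-24691517) had a normalized tag count of 72.9 over 2206 bp. H3K4me3 was called there in all 3 treatments, with 17.3 in mock, 65.5 after *E. coli* MVs and 35.4 after *V. cholerae* MVs. A region between genes near OPTC (chr1:203506098-203507744) had 68.7, and an intron of RARRES1, a retinoic acid-induced gene (chr3:158440864-158441746), had 63.8 over 882 bp.

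Distal regions higher with *E. coli* MVs were fewer and wide, with a median span of 2802 bp against 915 bp for those higher with *V. cholerae* MVs, and they lay at a median of 9406 bp from the nearest protein-coding start site. The lowest ratio was in ZMIZ1, a transcriptional co-regulator: its intron region (chr10:80907503-80913963) had 33.1 in mock, 290.3 after *E. coli* MVs and 9.11 after *V. cholerae* MVs, a log2 ratio of -3.57 (-4.60 to -2.71). Per kb of called size these were 18.8, 44.9 and 18.2 tags. An intron of PIEZO1, a mechanosensitive ion channel (chr16:88825597-88835010), had 34.6, 370.2 and 12.4 (-3.48), and per kb 17.9, 39.4 and 24.8, so that *V. cholerae* MVs stood below mock by tag count and above it per kb. A region between genes near NOTCH1, the Notch receptor (chr9:139455748-139466111), had no mock peak, 276.3 after *E. coli* MVs and 9.94 after *V. cholerae* MVs (-3.38). An intron of PWWP2B (chr10:134217193-134222942) had 10.4, 252.3 and 9.94 (-3.24), and an exon of a non-coding gene near RNF223 (chr1:1001950-1006109) had 15.9, 259.9 and 10.8 (-3.17). The sixth, in an intron of ZC3H3 on chromosome 8, had 8.29, 214.2 and 9.11 (-3.13). Among distal peaks unique to *E. coli* MVs, an intron of CRTC1, a CREB coactivator (chr19:18870484-18876736), had 247.2 with *E. coli* MVs and 20.7 in mock, and a region near EDN2, an endothelin (chr1:41960760-41970405), had 451.3 and 54.6. The region with the most tags, in an intron of PMF1 (chr1:156186076-156186967), had 660.4 in only 891 bp, or 741 tags per kb, and mock also stood high there with 91.2 per kb.

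**Figure D3:**
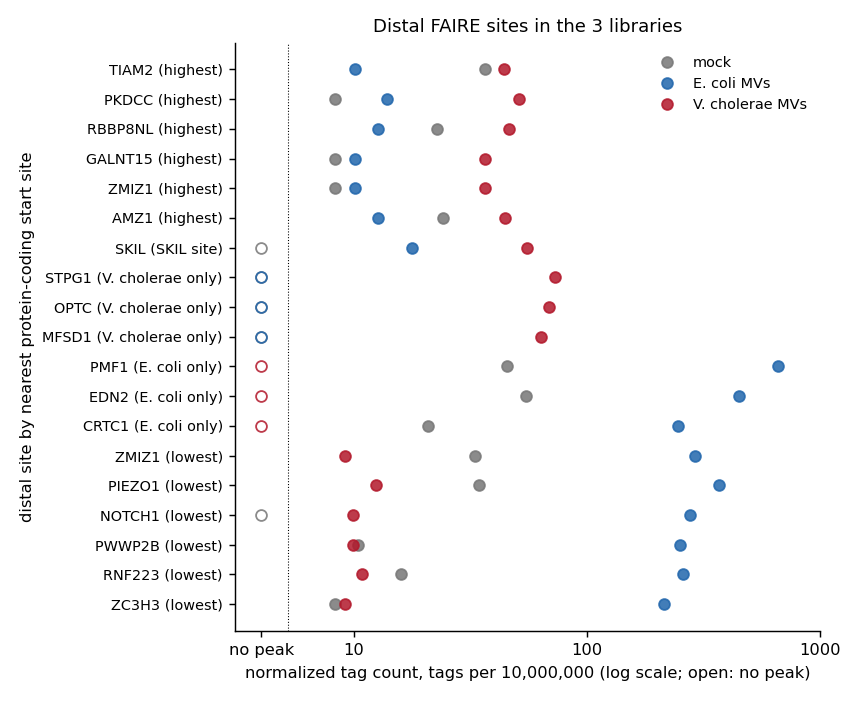
Normalized tag counts (log axis, tags per 10000000) of named distal regions in the mock, *E. coli* MV and *V. cholerae* MV libraries, 1 library each, with open circles for no peak. *V. cholerae* MVs stand above *E. coli* MVs in the upper rows by up to 43.9 against 10.1 at TIAM2, and *E. coli* MVs stand far to the right in the lower rows, up to 660.4 at PMF1.

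Motifs were counted in the middle 300 bases of each region. The AP-1 letters were present in 17.9% of distal regions higher with *V. cholerae* MVs, in 6.58% of those higher with *E. coli* MVs and in 14.6% of all distal regions. The NF-kB letters went the other way, with 21.9, 33.4 and 26.03%. The windows also differed in GC content, with medians of 53.0, 60.7 and 55.3%, and the NF-kB letters are richer in G and C than the AP-1 letters. Within the most AT-rich group, AP-1 letters were in 24.6% of the 3204 distal regions higher with *V. cholerae* MVs and in 22.4% of the 4207 that were called on neither side. In the next group the order was reversed, with 10.2% against 12.8%. E-box letters were in 61.6, 62.3 and 61.3% of the same 3 distal sets.

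For genes, the tags of all peaks within 1000 bp of any start site were summed. Of 20090 protein-coding genes, 12543 had a peak with *V. cholerae* MVs, 15620 with *E. coli* MVs and 12109 with both. By tag count genes were called towards *E. coli* MVs more often than the other way: 2199 genes (18.2%) were called towards *E. coli* MVs and 610 (5.04%) towards *V. cholerae* MVs, and the median log2 ratio scaled to tags in peaks was -0.17 (-0.19 to -0.15). The balance of calls turned with the measure and with the peaks or genes taken. Per kb, 5 genes were called towards *E. coli* MVs and 1993 towards *V. cholerae* MVs, and among genes of nearly equal called size 2 and 214. With only peaks at 8-fold or more over input these were 135 and 1154. That count was scaled to tags in the peaks kept, so the scale changed along with the peaks. Per 10000000 tags, 224 genes (1.85%) had more signal with *V. cholerae* MVs. Of the 12109 genes, 26 did so by more than counting error, without adjustment for the number of genes. Called size again moved with the calls: genes higher with *E. coli* MVs had a median of 4754 bp in that library and 790 bp with *V. cholerae* MVs. Per kb and scaled to tags in peaks, 1994 of these genes had a ratio above 0. Over all genes with both peaks the median per kb was 0.60.

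Among genes in the upper 50% of level, the highest ratio was at C19orf85, with no mock peak, 48.2 normalized tags with *E. coli* MVs and 149.9 after *V. cholerae* MVs, a log2 ratio of 3.06 (2.55 to 3.60) and of 1.94 per kb. This gene had no H3K4me3 peak in either library. FANCM, a helicase of DNA crosslink repair, had 15.2 in mock, 34.2 and 84.5 (2.72, and 1.56 per kb). TM4SF1, a cell surface tetraspanin-like protein, had no mock peak, 40.6 and 75.4 (2.31). UNC5CL, which signals to NF-kB in epithelial cells, had 8.29, 46.9 and 79.5 (2.18). IER3, an immediate early gene induced through NF-kB, had no mock peak, 86.2 and 139.9 (2.12, 1.71 to 2.55), and its per kb ratio was 0.32. NRBP1 had 27.0, 87.5 and 138.3 (2.08), but -0.15 per kb, since its *V. cholerae* MV peaks covered 5036 bp against 1069 bp. For IER3 and NRBP1 the larger value with *V. cholerae* MVs therefore went with wider called peaks, and for C19orf85 and FANCM it was seen per kb as well.

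At the other end the lowest ratio was at CRIP1, a LIM-domain protein abundant in the intestine, which had no mock peak, 1059.7 normalized tags in 16934 bp with *E. coli* MVs and 10.8 in 500 bp after *V. cholerae* MVs (-5.20, -6.12 to -4.42). MTA1, a subunit of the NuRD complex, had 51.8 in mock, 768.3 and 9.94 (-4.85). ACAP3 had 18.7, 692.1 and 9.11 (-4.83), MFSD3 had 11.1, 590.7 and 8.28 (-4.74), and FASN, fatty acid synthase, had no mock peak, 575.5 and 9.11 (-4.56). The *E. coli* MV peaks of these genes covered 13020 to 25416 bp, against 500 bp with *V. cholerae* MVs. Per kb the ratios were -0.12, 0.82, 0.35, -0.03 and 0.47. A gene without a symbol shares the CRIP1 peak. There were 3511 genes with a peak with *E. coli* MVs only, of which 1033 had a mock peak. Large values were at CCDC78 (811.3), HCFC1R1 (659.1), TBC1D24 (636.5, mock 24.2) and FAM89B (635.1), with called sizes of 9149 to 16910 bp. Of 434 genes with a peak with *V. cholerae* MVs only, 133 had a mock peak, and the largest values were 101.0 at a gene without a symbol and 53.85 at KIAA1217, where mock had 28.3. DNAJC5B had 40.6 and GPATCH4 37.3, both without a mock peak.

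**Figure D4:**
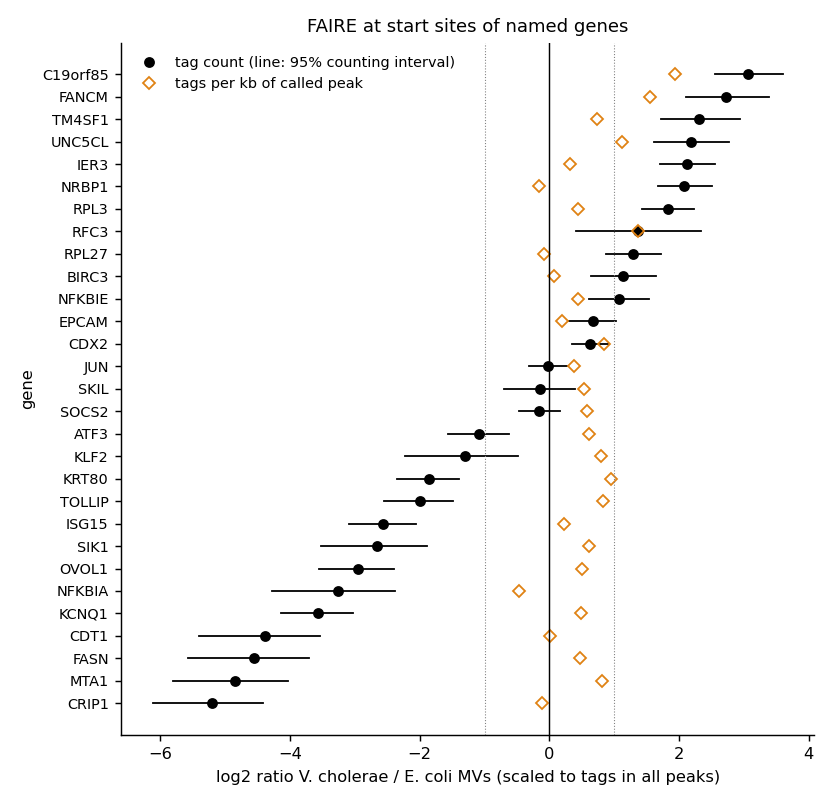
Log2 ratio of *V. cholerae* to *E. coli* MVs scaled to tags in all peaks (x axis) for named genes, from the summed tag count (dots, with the exact 95% counting interval) and per kb of called peak (open diamonds); dotted lines mark 2-fold. Dots span 3.06 at C19orf85 to -5.20 at CRIP1, whereas diamonds of the same genes lie between -0.47 and 1.94.

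The lists of genes are read against all genes with both peaks, of which 5.04% were called towards *V. cholerae* MVs and 18.2% towards *E. coli* MVs. Members with a peak in only 1 of the MV libraries have no ratio and are left out of the called counts. Of all genes, 3511 had a peak with *E. coli* MVs only and 434 with *V. cholerae* MVs only. Of 26 NF-kB pathway genes and targets with both peaks, 3 were higher with *V. cholerae* MVs and 5 with *E. coli* MVs, the median was -0.37 against -0.17 for all genes, and per kb it was 0.52 against 0.60. The members that stood highest were BIRC3, an inhibitor of apoptosis, with 13.8 in mock, 78.6 after *E. coli* MVs and 64.6 after *V. cholerae* MVs (1.14, 0.64 to 1.64). NFKBIE, which encodes an inhibitor of NF-kB, had no mock peak, 95.1 and 74.5 (1.07). NFKBIA, the main inhibitor of the same family, stood lowest with no mock peak, 233.2 and 9.11 (-3.26, -4.28 to -2.38), and its per kb ratio was -0.47. So among the NF-kB inhibitors the *V. cholerae* MV peak at NFKBIA was only 500 bp wide at 18.2 tags per kb against 67.7, while at NFKBIE it was wider than with *E. coli* MVs, 2972 bp against 1931 bp. BIRC3 and NFKBIE were not called per kb, with ratios of 0.08 and 0.45. LTB, lymphotoxin beta, had no mock peak, 88.7 and 12.4 (-1.42).

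Of 22 AP-1 and immediate early genes with both peaks, IER3 was higher with *V. cholerae* MVs and 3 were higher with *E. coli* MVs, among them KLF2 (no mock peak, 82.4 and 12.4, ratio -1.31) and ATF3 (31.8 in mock, 229.4 and 40.6, ratio -1.08). All 26 genes of this list had a peak with *E. coli* MVs and 22 had one with *V. cholerae* MVs. Those without the latter were FOS (192.7 with *E. coli* MVs), EGR3 (223.1), DUSP2 (185.1) and CCN2 (98.9). DUSP5, a MAP kinase phosphatase, had 15.2 in mock, 128.1 and 92.7 (0.96, 0.56 to 1.36). The list median was -0.28, and 5.04 and 18.2% of all genes were called. Distal regions were also counted under the gene with the nearest start site, an assignment made after the data were seen: near AP-1 and immediate early genes there were 120, with a median of 0.91, against 0.81 for all distal regions, and 39 of them (32.5%) were higher with *V. cholerae* MVs and 3 with *E. coli* MVs, where 27.5% and 4.67% of all distal regions were. Of 22 receptors and adaptors of bacterial sensing, 12 had a peak with *V. cholerae* MVs, 16 with *E. coli* MVs and 11 with both. Among the 11 with both, 0 were higher with *V. cholerae* MVs (5.04% of all genes) and 3 with *E. coli* MVs (18.2% of all genes). These included TOLLIP, an adaptor that dampens Toll-like receptor signalling (27.6 in mock, 310.5 and 29.0, ratio between -2.56 and -1.49), and IRAK1, a receptor-associated kinase (no mock peak, 86.1 and 9.11, -1.82). TLR5, the flagellin receptor, had 8.29 in mock, 185.1 and 108.5 (0.65, 0.30 to 1.00), and NLRP1 8.29, 70.9 and 47.1 (0.83). Of 18 interferon response genes 0 and 4 were called (all genes 5.04 and 18.2%), the median was -0.07 against -0.17 for all genes, and ISG15 (14.5, 470.3 and 29.8) and IRF7 (18.7, 182.5 and 11.6) both had -2.56. IFI35 stood highest at 0.93, with 40.8 in mock, 55.7 and 39.7.

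Among 19 cAMP response genes PDE10A, a phosphodiesterase, was higher with *V. cholerae* MVs (no mock peak, 54.5 and 42.3, ratio 1.05, 0.44 to 1.67) and 3 were higher with *E. coli* MVs, including SIK1 (209.1 and 12.4, -2.65) and the CREB-related factor ATF1 (106.5 and 14.9, -1.42). Neither SIK1 nor ATF1 had a mock peak. Of 15 ion and fluid transport genes 0 and 3 were called (all genes 5.04 and 18.2%), and the median was -0.53. KCNQ1, the potassium channel subunit that supports chloride secretion, had 7.60 in mock, 787.2 in 19725 bp with *E. coli* MVs and 24.8 in 1185 bp after *V. cholerae* MVs (-3.56). Its partner KCNE3 stood highest, with no mock peak, 83.7 and 56.3 (0.85, 0.34 to 1.36). ANO1, a chloride channel, had 71.9, 494.4 and 51.4 (-1.85), so the *V. cholerae* MV value was below mock by tag count. The called size there was also smaller, 2367 bp against 3700 bp in mock.

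Of 24 epithelial differentiation genes 0 were higher with *V. cholerae* MVs and 7 with *E. coli* MVs, beside 5.04 and 18.2% of all genes. OVOL1, a repressor that keeps the epithelial state, had 42.8 in mock, 480.4 and 23.2 (-2.95). GRHL2, a factor of epithelial junction genes, stood highest with 22.1, 135.6 and 98.5 (0.96), followed by EPCAM with no mock peak, 177.5 and 105.1 (0.67). For junction genes 0 and 4 of 18 with both peaks were called, against the same shares of all genes: CLDN3, a claudin, had 17.3, 167.3 and 9.11 (-2.78, and -0.36 per kb), and CGN, cingulin, 46.3, 244.7 and 29.8 (-1.62). All 22 genes of the junction list had a peak with *E. coli* MVs and 18 had one with *V. cholerae* MVs. For CTNND1, p120 catenin, values were 126.8 and 65.4 with no mock peak (0.47). Wnt targets and crypt stem genes had 0 and 6 of 18 (all genes 5.04 and 18.2%), among them LEF1 (no mock peak, 131.9 and 9.11, -2.43) and NKD1 (23.5, 235.7 and 18.2, -2.27). The Wnt-linked stem cell genes LGR5 (15.9, 139.4 and 99.4) and RNF43 (no mock peak, 190.2 and 130.8) stood highest at 0.93 and 0.88. In the distal regions nearest to the Wnt genes 43 of 128 were higher with *V. cholerae* MVs and 2 with *E. coli* MVs, with a median of 0.93, where 27.5 and 4.67% of all distal regions were called and their median was 0.81.

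Cytosolic ribosomal protein genes were the only one of the pathway lists with a tag count median above 0. Of 21 cytosolic ribosomal protein genes 15 had ratios above 0, the median was 0.43 against -0.17 for all genes, 3 were higher with *V. cholerae* MVs and 1 with *E. coli* MVs (all genes 5.04 and 18.2%). RPL3 had 15.2 in mock, 98.9 and 130.8 (1.83, 1.43 to 2.24), and RPL27 had 8.29, 106.5 and 97.7 (interval of the ratio 0.88 to 1.72), while RPS18 had no mock peak, 254.8 and 31.5 (-1.60). Per kb the median of the list was 0.71 against 0.60 for all genes, and RPL3 and RPL27 had 0.44 and -0.08. The list's median GC content was 56.3%, against 59.4% for all genes with both peaks. Cholesterol synthesis genes had the lowest median of the pathway lists, -0.61, and 0.16 per kb, with 0 and 7 of 18 called (all genes 5.04 and 18.2%). MVD had 11.1, 536.2 and 56.3 (-1.83), DHCR7 8.98, 339.7 and 38.9 (-1.70), and INSIG1, the sterol sensor, no mock peak, 201.6 and 100.2 (0.41). Of 22 DNA replication genes 1 and 3 were called (all genes 5.04 and 18.2%): RFC3, a clamp loader subunit, had 21.5 and 20.7 (1.36, 0.42 to 2.34, and the same per kb) and the licensing factor CDT1 had 512.1 and 9.11 (-4.39, and 0.00 per kb), neither with a mock peak. ER stress and heat shock genes had 0 and 1 of 19, TRIB3 (no mock peak, 178.8 and 24.8, -1.43). Scaled to tags in peaks, the tag count median was below 0 in 12 of the 13 pathway lists described. On the same scale the per kb median was above 0 in all of them.

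**Figure D5:**
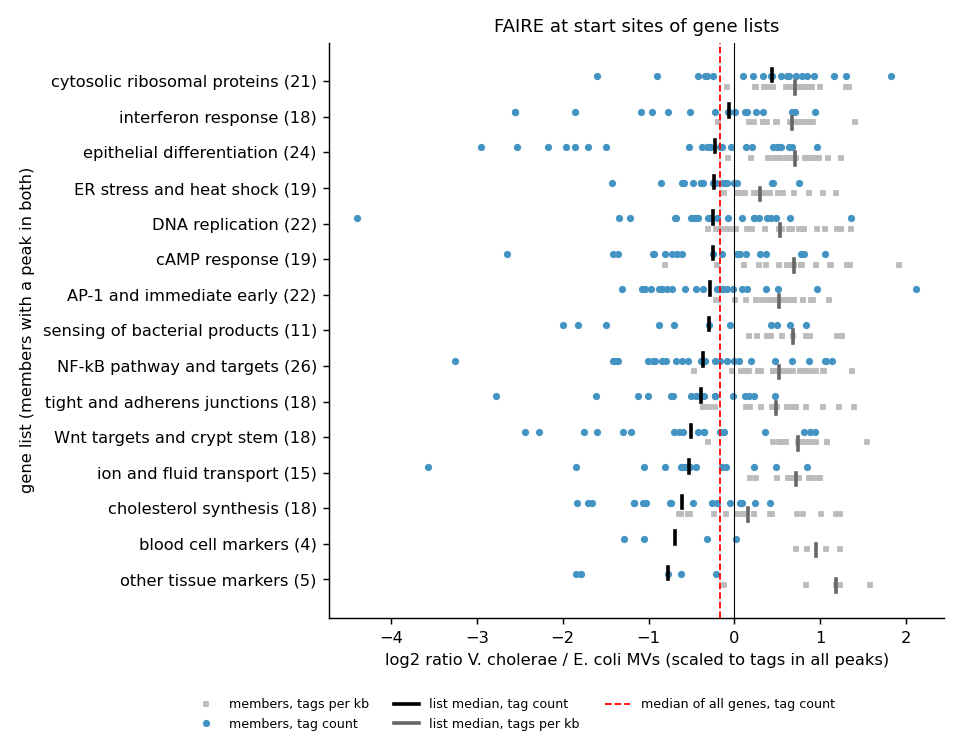
Log2 ratio of *V. cholerae* to *E. coli* MVs scaled to tags in all peaks (x axis) for members of gene lists with a peak in both libraries, from the tag count (blue dots, black bar for the median) and per kb of called peak (grey squares, grey bar). Black bars lie near the red line of all genes at -0.17, from -0.78 to 0.43, and grey bars lie to the right of 0.

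The genes that the study itself named were chosen by it from these cells, so their values are no independent evidence of a direction. Of the genes named for opposite regulation, RND3, an atypical small GTPase, had 171.1 after *E. coli* MVs and 38.1 after *V. cholerae* MVs (-0.75), and SOCS2, a cytokine signalling inhibitor, 310.6 and 104.3 (-0.15, -0.47 to 0.16), both without a mock peak. Of those named as raised by both MVs, JUN had 16.6 in mock, 343.5 and 126.7 (-0.02, -0.31 to 0.27), MAP3K14, the NF-kB-inducing kinase, 8.98, 347.3 and 101.8 (-0.35), and ALDH1A3 16.6, 72.2 and 9.94 (-1.44). JUN and SOCS2 took nearly equal shares of the tags in peaks. Per 10000000 tags both MV libraries stood above the mock value at JUN, whereas SOCS2 had no mock value to compare.

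Among the differentiation genes named by the study, SKIL, a repressor of SMAD signalling, separated its start site from a distal region. At the SKIL start site values were 110.3 after *E. coli* MVs and 37.3 after *V. cholerae* MVs with no mock peak (-0.14, -0.70 to 0.39). A region between genes 25745 bp from that start site (chr3:170047999-170049385) had no mock peak, 17.7 and 55.5, a ratio of 3.07 (2.22 to 4.01) and of 2.05 per kb. It was higher with *V. cholerae* MVs also per 10000000 tags. The middle 300 bases of this region lie in repeated sequence: only 22.5% of their 25-base words occur once in the genome and the most frequent has 54568 copies, whereas at least 99.3% of the words of the windows printed above occur once. The part of repeats in this value was not tested. VDR, the vitamin D receptor, had 34.5 in mock, 324.6 and 93.6 (-0.37), CDK6 35.9, 199.0 and 66.2 (-0.17) and CDKN1B, a cell cycle inhibitor, 11.1, 188.9 and 99.4 (0.49, 0.14 to 0.85). KRT80, a keratin, had 13.8, 354.9 and 36.4 (-1.86), and TJP1, a tight junction scaffold, had 12.4 in mock, 100.1 with *E. coli* MVs and no peak after *V. cholerae* MVs. CCND1, cyclin D1, had 8.29, 419.6 and 125.1 at its start sites (-0.33). The distal region closest to it (chr11:69450985-69454434), 1490 bp from the nearest start site, had no mock peak, 292.8 and 23.2 (-2.24, -0.06 per kb). The highest ratios among distal regions nearest to CCND1 were at 40820 bp (chr11:69413601-69415104; 12.7 and 25.7, ratio 2.44) and 96345 bp (chr11:69358165-69359579; 11.4 and 24.8, ratio 2.54). These had only 10 and 9 tags with *E. coli* MVs, and per kb 1.18 and 1.04 against a median of 1.00 for all distal regions. The farthest region, at 143254 bp (chr11:69308869-69312670), had 155.9 and 24.0 (-1.28, -1.91 to -0.68), so the ratio did not follow distance.

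H3K4me3, a mark of active promoters, was measured in separate libraries of the same treatments. The groups were chosen by their FAIRE ratio, so the ranges of FAIRE and H3K4me3 were not compared. Log2 ratios of *V. cholerae* to *E. coli* MVs, scaled to tags in H3K4me3 peaks, were taken where both libraries had an H3K4me3 peak. The median was -0.14 in 1415 of the 7343 regions higher with *V. cholerae* MVs by FAIRE. It was 0.25 in 1506 of the 2921 regions higher with *E. coli* MVs and 0.05 in 10504 of the others, the opposite order to FAIRE. In the 4 GC groups, from AT-rich to GC-rich, the H3K4me3 medians were -0.22, -0.05, 0.05 and 0.16. The part of base composition in this order was not tested. At NFKBIA the H3K4me3 ratio was 0.26 and at IER3 0.08, at KCNQ1 0.29 and at RPL3 -0.10. Each H3K4me3 value too comes from 1 library per treatment.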

How the data were processed

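FAIRE was measured in HCT8 cells after 5 h with *V. cholerae* MVs, *E. coli* MVs or, per the study, buffer, 1 library each. The authors aligned reads to hg19 and called peaks over an input library with HOMER. Tools in the submitters' notes on processing were HOMER 4.7.2, Bowtie 1.1.2 and SAMtools 1.3.1, whereas the methods of the study name Bowtie 2. Per the file headers, peaks of 500 bp or more in histone mode were required to be 4-fold over input at a Poisson p of 0.0001, with a minimum distance of 1000 bp. Wide signal is thereby joined into 1 wide peak and its called size depends on signal strength. The deposited normalized tag count is a signal per 10000000 tags. The deposited tag counts of the FAIRE lists were used as counts, and whole tags of the H3K4me3 lists were recovered from the authors' normalized tag counts. The authors' fold over input, a ratio, served as a filter in 1 alternative, and their p-value columns as deposited were not used further. The 2 input libraries were not analysed here.

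Overlaps, ratios and exact intervals were computed with Python 3.11.15, NumPy 2.4.6, pandas 2.3.3 and SciPy 1.17.1, and tested on simulated data. Start sites came from GENCODE release 44 on GRCh37, and a peak near several genes counts for each. GC content and motifs were read from GRCh37. Of 19 gene lists, all members but 1 were in the annotation. The members, lists and motifs were chosen with earlier results of these data known. Named genes were the 2 highest and 2 lowest of each list by ratio, the 6 highest and 6 lowest of the upper 50% of level, the 5 with most tags and no peak in the other list, and all genes the study named; named distal regions were the 6 highest and 6 lowest of the upper 25% and the 3 unique peaks with most tags per list. Some of these genes and 1 list are not reported here. Alternatives were another peak threshold, overlap, scaling, fold, window, minimum of tags and value per kb.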

Additional observations from a re-analysis of the deposited data

Results flagged for a closer look

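Mitochondrial DNA was outside the comparisons above, which used chromosomes 1 to 22 and X. FAIRE peaks there summed to a normalized tag count of 838.7 in mock, 4695.6 with *V. cholerae* MVs and 19632.0 with *E. coli* MVs, so both MV libraries stood above the mock library in data not otherwise analysed. The called mitochondrial length was 3555, 7638 and 15528 bp, and the tags there were 0.118, 0.338 and 0.526% of the tags in peaks. Mitochondrial DNA carries no nucleosomes. With 1 library each, the difference between the treatments was not tested.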

How the results depend on the processing

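No paired analysis was possible because only 1 FAIRE library was made per treatment, and none could be left out. Scaling to tags in all peaks turned the median log2 ratio of normalized tag counts from -0.99 to 0.43 and that of tags per kb from -0.51 to 0.91. With only peaks at 8-fold or more over input, 10.7% of *E. coli* MV peaks were shared, the medians were -0.91 for counts, -0.16 for size and -0.55 per kb, and calls were 24 regions (1 distal) and 135 genes higher with *E. coli* MVs and 2570 regions and 1154 genes after *V. cholerae* MVs. The calls of this alternative were scaled to tags in the peaks kept, so the scale changed along with the peaks. With an overlap of 50% of the shorter peak, 35.4% were shared and the medians were -1.05, -0.35 and -0.52. With regions of 1 peak per list they were -0.93, -0.32 and -0.51. With at least 40 tags the count median was -1.39 and 3450 regions were higher with *V. cholerae* MVs. Scaled to the median of shared regions, 5542 regions (1825 distal) and 3773 genes were higher with *E. coli* MVs and 3456 regions and 202 genes after *V. cholerae* MVs. Scaled to all tags, these were 17434 regions and 9677 genes, and 292 regions and 17 genes. At 1.5-fold, 3466 genes were higher with *E. coli* MVs and 1378 after *V. cholerae* MVs. Per kb, 5 regions (0 distal) and 5 genes were higher with *E. coli* MVs and 1993 genes after *V. cholerae* MVs. Restricted, after seeing the data, to called sizes at most 25% apart, 1 region (0 distal) and 2 genes were higher with *E. coli* MVs and 2628 regions and 214 genes after *V. cholerae* MVs; fewer regions entered. The causes of the other changes were not tested. At the thresholds of 9 and 11 tags, small peaks are near the limit of detection.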

Other observations

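Genes whose peaks had nearly the same width in both libraries were described separately. There were 3165 genes with called sizes at most 25% apart, a set made after the data were seen, with a median log2 ratio scaled to tags in peaks of 0.32 (0.29 to 0.33). Calls were 214 towards *V. cholerae* MVs and 2 towards *E. coli* MVs. In the upper 50% of level, ILF2, an RNA-binding factor, stood highest with 28.3 in mock, 81.1 after *E. coli* MVs and 83.6 after *V. cholerae* MVs (1.47, 1.00 to 1.94). TOP2B, a topoisomerase, had 11.1, 74.8 and 68.7 (interval of the ratio 0.80 to 1.81), LAMB3, a chain of the epithelial laminin of the basement membrane, 27.0, 157.2 and 140.8 (1.26), and SLC44A4, a thiamine pyrophosphate transporter of the colon, 18.65, 147.0 and 127.5 (1.22). PHF7 was lowest with 29.0, 225.6 and 40.5 (-1.05, -1.54 to -0.59), followed by BBLN with 11.1, 178.7 and 34.8 (-0.94). The GC content of these regions was 49.9% at ILF2 and 65.0% at BBLN.

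Among regions of nearly equal called size in the upper 25% of level, the highest ratio was at an intronic region of TBX4 (chr17:59536106-59539309), with 21.4 in mock, 46.9 and 86.9 (2.31, 1.76 to 2.89, and 2.11 per kb). At an annotated start site within MACF1, a linker of actin and microtubules (chr1:39624198-39625514), no mock peak, 40.6 and 50.5 (1.74), and an intronic region of HOXB7 (chr17:46695651-46697871) had no mock peak, 90.0 and 104.3 (1.63). A region in an intron of the non-coding gene LINC02948 (chr8:29412840-29413604) had no mock peak, 36.8 and 51.3 (1.90). The nearest protein-coding start site, that of DUSP4, was 204639 bp away. The lowest were start sites: HLCS (chr21:38362011-38363173) with 9.67, 128.0 and 21.5 (-1.15), ZBTB18 (chr1:244210973-244212175) with 12.4, 251.0 and 48.9 (-0.94), and CASP9, an initiator caspase (chr1:15850623-15852116), with 18.7, 338.5 and 66.2 (-0.93). These genes and regions were named after their values were seen.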
